A study of Mus musculus with 4 samples.

Results

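The distal end of mouse chromosome 7 carries a pair of neighbouring imprinted domains, the H19-Igf2 domain and the Kcnq1ot1-Cdkn1c domain. At least in some tissues, many of their genes are transcribed mainly from the maternal or the paternal copy. Their transcripts were described in mouse embryonic stem cells (mESCs) by taking the genes of the table whose Ensembl identifiers map to 10 named genes of the region: H19, Igf2, Ascl2, Cd81, Tssc4, Kcnq1, Kcnq1ot1, Cdkn1c, Slc22a18 and Phlda2. Of these, 9 were found among the 37310 genes of the table, and Kcnq1ot1 was not analysed here. The 9 genes span 927 kb in the mm9 build, chr7:149761434-150688446, and 7 of them had enough reads to be tested.

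Bulk mRNA was sequenced from 4 libraries, 2 of parental wild-type JM8 mESCs (strain C57BL6/N) and 2 of Bmal1-/- mESCs derived from them. Bmal1, listed under the symbol Arntl, is the bHLH-PAS transcription factor that pairs with Clock at the core of the circadian clock, and the comparison asks which transcripts differ when it is mutated. The Bmal1-/- line is a single clone made with CRISPR/Cas9 frameshift mutations, so an effect of the mutation and a difference between this clone and its parental population cannot be told apart. Both lines were grown without feeders on gelatin in the serum-free 2i medium with LIF, which contains 1 µM of the Mek inhibitor PD0325901 and 3 µM of the Gsk3 inhibitor CHIR99021. The series' design text calls the libraries biological replicates without saying how the cultures were separated, so p-values measure the spread between these libraries, which may be partly technical.

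Imprinted genes keep a memory of their parental origin through DNA methylation that is laid down in the germ line. In the H19-Igf2 domain, a control region upstream of H19 binds the insulator protein Ctcf on the maternal copy, where H19 is expressed, and is methylated on the paternal copy, where Igf2 is expressed. In the Kcnq1ot1-Cdkn1c domain, the long non-coding RNA Kcnq1ot1 is transcribed from the paternal copy inside Kcnq1 and silences neighbouring genes on that copy, so that Cdkn1c, Slc22a18 and Phlda2 are expressed mainly from the maternal copy. Many of these genes act on fetal and placental growth. The libraries come from an inbred line and the values are per gene, so the maternal and paternal copies cannot be told apart in them.

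The control region upstream of H19 is shown here because its Ctcf sites are the best known regulatory sequence of the domain. A core of 14 letters of the Ctcf motif, in the form known from this control region, was searched on both strands in the 5 kb upstream of the H19 start in mm9. There were 4 matches, all on the strand that H19 is transcribed from, at 2.17, 2.62, 3.65 and 3.89 kb upstream. They are printed 5′ to 3′ on the minus strand, with the matched letters in capitals. The letters that all 4 share were required, and any base was allowed where they differ.
Site 1, chr7:149766214-149766227: atgCCGCGTGGTGGCAGtaca
Site 2, chr7:149766669-149766682: ctaCCGCGCGGTGGCAGcata
Site 3, chr7:149767695-149767708: ttgCCGCACGGCGGCAGtgaa
Site 4, chr7:149767939-149767952: ttgCCGCGTGGTGGCAGcaaa
Of 28321 windows of the same length along chromosome 7, 52 windows (0.184%) held at least 1 match and 1 window held at least 4. This form of the motif was described from the control region itself, so the matches there are no finding and the shares only describe how often the letters occur. A match describes letters in the genome only, and neither Ctcf binding nor methylation was measured in these libraries.

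Promoters of 3 genes whose mRNA differed between the lines are printed to show how unlike they are in sequence. The RefSeq promoter table (GRCm38.p6, 250 bases before to 50 bases after each start) held 10 entries for 7 of the 10 genes. Each sequence is given 5′ to 3′ on the gene's strand, with CG dinucleotides, the sites of DNA methylation, in capitals.
Phlda2, GRCm38.p6 chr7:143502475-143502774, minus strand: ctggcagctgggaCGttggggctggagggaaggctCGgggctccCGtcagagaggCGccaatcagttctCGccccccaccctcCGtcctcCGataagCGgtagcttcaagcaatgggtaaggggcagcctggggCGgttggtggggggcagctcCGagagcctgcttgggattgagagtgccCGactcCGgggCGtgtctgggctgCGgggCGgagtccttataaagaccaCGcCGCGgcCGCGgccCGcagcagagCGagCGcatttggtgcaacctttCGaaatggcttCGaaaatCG
Slc22a18, GRCm38.p6 chr7:143473539-143473838, plus strand: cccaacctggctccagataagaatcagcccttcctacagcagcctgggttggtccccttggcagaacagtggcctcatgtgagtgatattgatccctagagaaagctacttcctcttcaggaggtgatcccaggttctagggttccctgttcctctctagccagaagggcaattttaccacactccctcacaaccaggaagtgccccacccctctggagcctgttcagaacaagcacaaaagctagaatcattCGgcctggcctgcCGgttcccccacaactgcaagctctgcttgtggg
Ascl2, GRCm38.p6 chr7:142969215-142969514, minus strand: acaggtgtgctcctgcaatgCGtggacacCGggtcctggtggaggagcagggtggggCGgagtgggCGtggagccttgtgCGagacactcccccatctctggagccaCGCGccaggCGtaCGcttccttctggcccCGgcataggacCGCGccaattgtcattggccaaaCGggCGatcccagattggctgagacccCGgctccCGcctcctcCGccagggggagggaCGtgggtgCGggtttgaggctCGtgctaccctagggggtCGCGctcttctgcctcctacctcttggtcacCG
The Phlda2 promoter held 26 CG dinucleotides and the Ascl2 promoter 23, against a median of 7 over all promoters of the table. The Slc22a18 promoter held 2, fewer than most promoters (percentile 14.1). The palindrome CACGTG, the E-box that Bmal1 and Clock bind, was in 0 of the 10 entries and in 7.15% of all 32851 promoters. The absence of these letters from the windows says nothing about binding elsewhere.

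Depth was similar, at 21504265 to 23329034 reads on genes per library, and a library's 3 reads corresponded to a normalised read count of 2.82 to 3.19. The mRNA of the targeted gene Arntl was present in all 4 libraries, with a mean in the Bmal1-/- libraries at 81.2% of wild-type (log2 fold change -0.30, limma adjusted p = 0.00113). This level does not tell the genotypes apart, so "Bmal1-/- library" is used throughout as a label and not as a genotype checked from these counts. The paper states that the clone itself was genotyped by sequencing, which the counts per gene cannot repeat. Naive pluripotency markers were abundant in every library, with summed normalised read counts of 162462 to 169742 over 10 genes, as the cell type label states. In such bulk libraries, fewer cells of a type and less RNA per cell cannot be told apart.

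The region moved in both directions. Cdkn1c, Phlda2 and Slc22a18, adjacent genes at the far end of the Kcnq1ot1-Cdkn1c domain, were lower in the Bmal1-/- libraries, at 46.8%, 52.8% and 56.7% of the wild-type mean. Tssc4 was also lower, at 79.5%, whereas Igf2 and Ascl2 were higher, at 169% and 149%. By limma on log2(normalised read count + 1), with Benjamini-Hochberg adjustment over 14510 tested genes, 6 of the 7 tested genes passed an adjusted p of 0.05, 4 lower and 2 higher. Among all tested genes 52.6% passed this threshold, 28.6% lower and 24.0% higher. Cdkn1c alone of the 7 also differed by over 2-fold. All tested genes met that rule at 7.21%, with 1.45% lower and 5.75% higher. The libraries of the lines did not overlap for any of the 7, with 5 lower and 2 higher, but this held for 76.0% of all tested genes, 41.4% lower and 34.6% higher, so it says little about these 7. The median log2 fold change of the 7 genes was -0.33, against -0.03 over all tested genes.

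**Figure D1:**
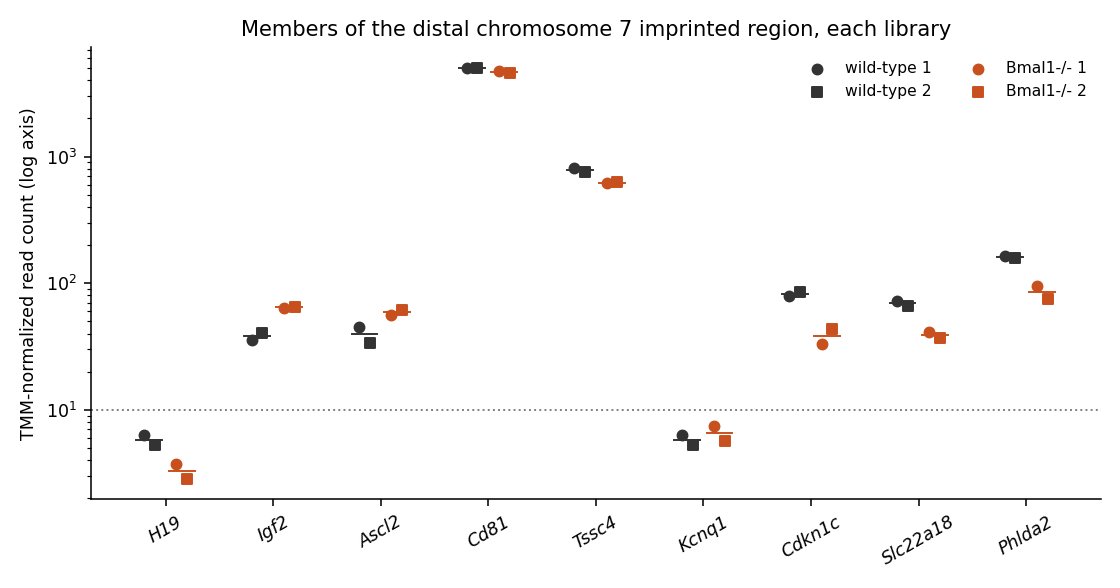
Normalised read counts (log scale) of the 9 genes in each of the 4 libraries, wild-type and Bmal1-/-, with 1 point per library. Cdkn1c, Slc22a18 and Phlda2 have both Bmal1-/- points below both wild-type points, Igf2 and Ascl2 have them above, and H19 and Kcnq1 lie below 10 in every library.

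Igf2 (ENSMUSG00000048583, chr7:149836673-149852721, minus strand) encodes the fetal growth factor of the region. Wild-type libraries had normalised read counts of 35.8 and 40.4, and Bmal1-/- libraries 63.9 and 64.8. The groups did not overlap, and the Bmal1-/- pair lay close together. The log2 fold change was 0.74 (SE 0.20, 95% interval 0.32 to 1.17, n = 2 per line, limma adjusted p = 0.00423). These values rest on 72 wild-type and 136 Bmal1-/- reads, and with DESeq2 on the recovered reads the adjusted p was 0.0667. Per kilobase of exon the wild-type level was 6.93 (percentile 9.15 of tested genes), and the Bmal1-/- level was 11.7.

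H19 (ENSMUSG00000000031, chr7:149761434-149764048, minus strand), the maternally expressed long non-coding RNA that contains the microRNA gene Mir675, was barely detected. Its normalised read counts were 6.32 and 5.31 in wild-type and 3.76 and 2.86 in Bmal1-/- libraries, or 11 reads against 7 in all. Both Bmal1-/- values lay below both wild-type values, but H19 was under the mean of 10 set for testing. The ratio of Bmal1-/- to wild-type was 0.569, with a 95% counting interval of 0.187 to 1.61 that covers counting error only, so no difference was detectable at this depth. Mir675 itself had 0 reads in all 4 libraries, which allows up to 3 reads per library, in a library type made for mRNA.

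Igf2as, a long non-coding RNA gene antisense to Igf2, was the only tested gene between H19 and Phlda2 besides Cdkn1c past both thresholds. Its normalised read counts were 7.37 and 4.25 in wild-type and 20.7 and 15.3 in Bmal1-/- libraries. The groups did not overlap, with 11 reads against 38. The mean was 5.81 in wild-type and 11.9 over all libraries, so Igf2as reached the mean set for testing only through its Bmal1-/- libraries. H19 and Kcnq1, each with a wild-type mean of 5.82, had no such rise and were not tested. That Igf2as was the only such gene besides Cdkn1c therefore depends partly on the mean set for testing. The log2 fold change was 1.50 (SE 0.43, limma adjusted p = 0.00626), and the adjusted p ranged from 5.94e-04 to 0.0946 over 15 alternative analyses. It was above 0.05 in 4 of them, the highest without Bmal1-/- replicate 1 (log2 fold change 1.29). Exons of Igf2 and Igf2as share 98 bases on opposite strands, and the genes overlap over 7124 bases with introns included. The library kit keeps strand, but whether the counting used it is not given in the sources used here. Reads within the overlap therefore cannot be assigned to either gene with certainty.

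Ascl2 (ENSMUSG00000009248, chr7:150152727-150155169, minus strand) encodes a bHLH transcription factor needed for trophoblast development in the placenta. Its normalised read counts were 45.3 and 34.0 in wild-type and 56.4 and 62.0 in Bmal1-/- libraries. The groups did not overlap, although the wild-type pair was spread as widely as the gap between the groups. The log2 fold change was 0.58 (SE 0.21, 95% interval 0.13 to 1.03, limma adjusted p = 0.0287). This call was the least stable of the 6: it was lost in 8 of 15 alternatives, including DESeq2 (adjusted p = 0.190) and leaving out wild-type replicate 2 (log2 fold change 0.38, adjusted p = 0.182), Bmal1-/- replicate 1 (0.65, adjusted p = 0.0769) or Bmal1-/- replicate 2 (0.51, adjusted p = 0.173).

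Between Ascl2 and Kcnq1 lie Cd81 and Tssc4, the most abundant genes of the set. Cd81 (ENSMUSG00000037706, chr7:150238644-150253839, plus strand), a tetraspanin of the cell surface, had normalised read counts of 5002 and 5011 in wild-type and 4774 and 4591 in Bmal1-/- libraries. The groups did not overlap, but the difference was small: a log2 fold change of -0.10 (95% interval -0.18 to -0.01, SE 0.04) with a limma adjusted p of 0.0531, which did not pass. Tssc4 (ENSMUSG00000045752, chr7:150255154-150256998, plus strand), named as a transcript of the tumour-suppressing region, had 810 and 757 in wild-type and 619 and 627 in Bmal1-/- libraries. All Bmal1-/- values were below all wild-type values, with a log2 fold change of -0.33 (SE 0.07, 95% interval -0.47 to -0.19, limma adjusted p = 2.62e-04). Tssc4 shares 220 of its 1760 exon bases with Trpm5 on the opposite strand, a gene with 4 to 11 reads per library.

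Kcnq1 (ENSMUSG00000009545, chr7:150293159-150612955, plus strand), a voltage-gated potassium channel whose gene body contains the Kcnq1ot1 start, had normalised read counts of 6.32 and 5.31 in wild-type and 7.52 and 5.72 in Bmal1-/- libraries. The groups overlapped. With 11 and 14 reads, the ratio was 1.14 with a counting interval of 0.480 to 2.77, and no difference was detectable at this depth.

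Cdkn1c (ENSMUSG00000037664, chr7:150644255-150646955, minus strand) encodes p57Kip2, a cyclin-dependent kinase inhibitor that restrains the cell cycle. Its normalised read counts were 79.0 and 85.0 in wild-type and 32.9 and 43.9 in Bmal1-/- libraries. Both Bmal1-/- values lay far below both wild-type values. The log2 fold change was -1.09 (SE 0.20, 95% interval -1.51 to -0.67, limma adjusted p = 1.26e-04), the lowest of the 7 tested genes and rank 169 from the bottom of all 14510. Its adjusted p stayed under 0.05 in each of the 15 alternatives that could test it, where the log2 fold change ran from -1.31 to -0.89. The interval includes differences of less than 2-fold, and without Bmal1-/- replicate 1 the log2 fold change was -0.89.

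Slc22a18 (ENSMUSG00000000154, chr7:150659626-150685239, plus strand), a membrane transporter of the solute carrier family, had normalised read counts of 72.7 and 65.9 in wild-type and 41.3 and 37.2 in Bmal1-/- libraries. The pairs were well separated. The log2 fold change was -0.80 (SE 0.20, 95% interval -1.22 to -0.39, limma adjusted p = 0.00199), with an adjusted p of 0.0583 in DESeq2.

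Phlda2 (ENSMUSG00000010760, chr7:150687450-150688446, minus strand) encodes a small pleckstrin homology domain protein that limits growth of the placenta. It had normalised read counts of 163 and 159 in wild-type and 94.9 and 75.3 in Bmal1-/- libraries. The wild-type pair was tight and the Bmal1-/- pair wider, with no overlap. The log2 fold change was -0.92 (SE 0.15, 95% interval -1.23 to -0.62, limma adjusted p = 2.1e-05). When Bmal1-/- replicate 1 was left out it was -1.09, and when Bmal1-/- replicate 2 was left out it was -0.76. The call held in all 16 alternatives. Cdkn1c, Slc22a18 and Phlda2 thus all lay in the lowest part of the distribution of tested genes, at percentiles 1.16, 2.61 and 1.78.

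**Figure D2:**
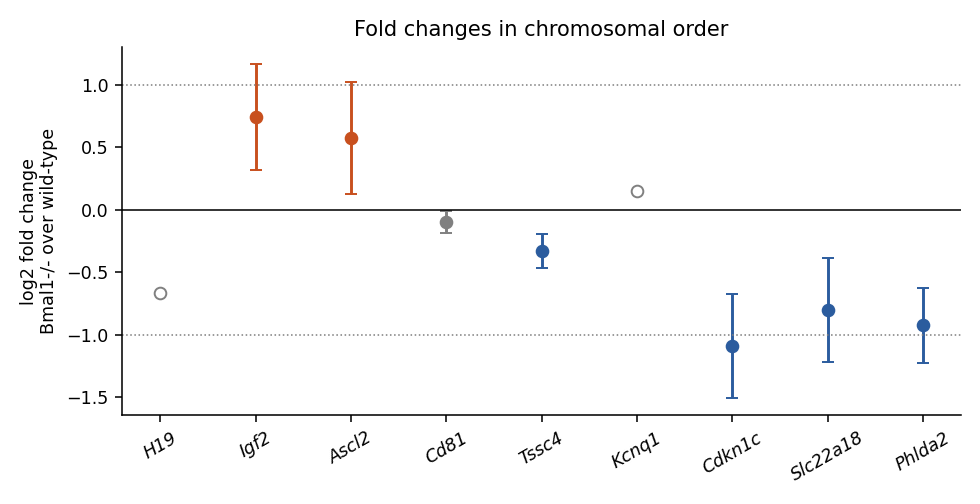
Log2 fold change of the 7 tested genes, Bmal1-/- over wild-type, with 95% intervals from limma. The intervals of Cdkn1c, Phlda2, Slc22a18 and Tssc4 lie below 0 and those of Igf2 and Ascl2 above 0, while that of Cd81 ends at -0.01 and its adjusted p did not pass.

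Levels of different genes can be set side by side per kilobase of exon. In the wild-type libraries the order was Cd81 with a mean of 2205, Tssc4 with 445, Phlda2 with 213, Cdkn1c with 42.5, Slc22a18 with 40.3, Ascl2 with 24.6, Igf2 with 6.93, H19 with 2.45 and Kcnq1 with 1.88. Cdkn1c (40.9 and 44.0) and Slc22a18 (42.3 and 38.3) overlapped between their libraries, and the order of H19 and Kcnq1 rests on 11 reads each. In the Bmal1-/- libraries Ascl2 (35.0 and 38.5) stood above both Slc22a18 (24.1 and 21.6) and Cdkn1c (17.0 and 22.7), an order opposite to that in wild-type.

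The genes whose log2 values, centred over the 4 libraries, lay nearest to 3 of the genes were picked by Euclidean distance. The candidates were all tested genes outside the set, so the region's own genes were not compared with each other. For Igf2 these were Larp1b (distance 0.024), Acpl2 (0.025) and St3gal5 (0.028). For Cdkn1c they were AC167122.1 (0.054), Nipal1 (0.071) and Xlr5a (0.072). For H19 they were Igfbpl1 (0.062), Snora41 (0.065) and Fkbp10 (0.069). H19 had only 3 to 6 reads per library and no detectable difference, so its nearest genes may reflect counting error only. For Igf2 and Cdkn1c, with 4 libraries of 2 lines, such a distance mostly describes the same difference between the lines.

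The genes around the set were also examined. For the counts below, 24.0% of all tested genes were higher and 28.6% lower by adjusted p. Between H19 and Phlda2, 4 genes outside the set were tested, of which 3 were higher: Igf2as, Gm15024 and Tspan32, the last a tetraspanin gene next to Ascl2. Gm15024 (minus strand) and Tspan32 (plus strand) overlap from chr7:150190951 to 150193938 with introns included. Their exon overlap was not examined, and any reads shared there cannot be assigned to either gene with certainty. The call of Gm15024 (log2 fold change 0.64) was lost in 8 of 15 alternatives, among them without wild-type replicate 2 (0.42) and without either Bmal1-/- replicate (0.63 and 0.66). Tspan32, named after its values were seen, had normalised read counts of 45.3 and 48.9 in wild-type and 78.9 and 85.8 in Bmal1-/- libraries, a log2 fold change of 0.79 (limma adjusted p = 0.00107). Of 23 gene identifiers listed for other genes of the region and its borders, Tnfrsf22 among them with 2 identifiers, 10 were tested, with 4 higher, 3 lower and 3 not passing, and a median log2 fold change of -0.06. The lowest of them was Mrpl23, a mitochondrial ribosomal protein gene beside H19, at -0.34 (limma adjusted p = 0.00781, and 0.0924 without Bmal1-/- replicate 2), and 4 of the 23, among them Ins2 and the second Tnfrsf22 identifier, had 0 reads in every library.

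**Figure D3:**
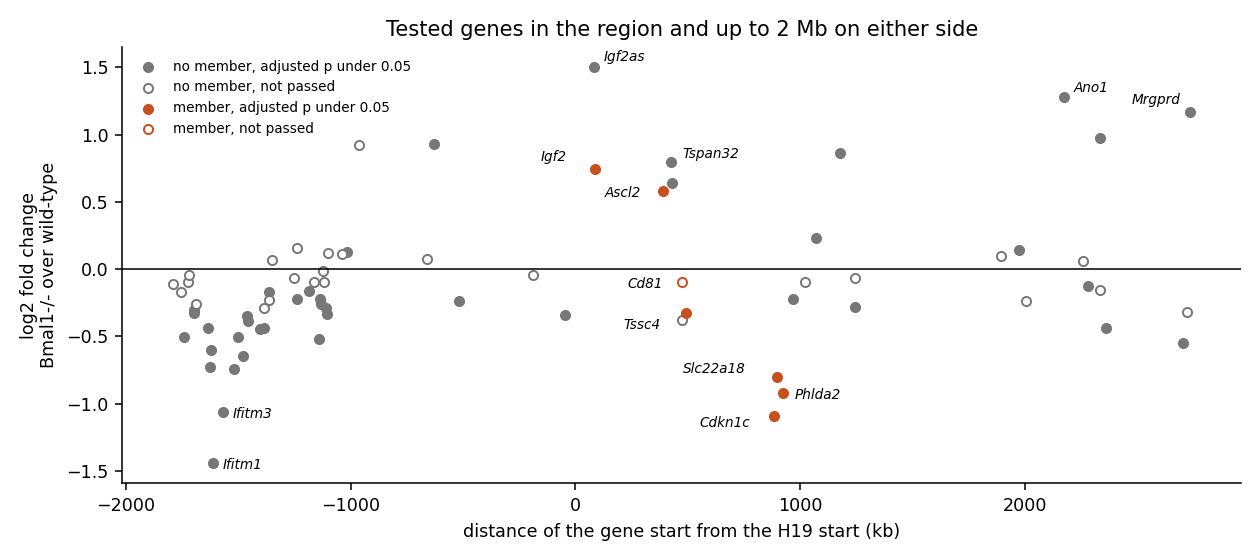
Log2 fold change (Bmal1-/- over wild-type) of each tested gene against the distance of its start from the H19 start in kb, for the region and 2 Mb on either side, with filled points for an adjusted p under 0.05. Igf2as, Igf2, Ascl2 and Tspan32 lie above 0, from 0.58 to 1.50, and the neighbours Cdkn1c, Slc22a18 and Phlda2 lie together below 0, from -1.09 to -0.80.

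Igf2 acts through receptors and binding proteins, and 18 genes of this pathway or related to it were listed, 14 of them tested. Of these 8 were higher (57.1%, against 24.0% of all tested genes), 2 lower (14.3%, against 28.6%) and 4 did not pass. The median log2 fold change was 0.28. The list also held Igf2bp1, Igf2bp2, Igf2bp3 and Plagl1, which encode neither receptors nor proteins that bind Igf2. Igf2bp2, Igf2bp3 and Plagl1 were among the 8 higher, so the share does not describe receptors and binding proteins alone. Igf1r, the receptor that transmits the Igf2 signal, rose the most, from 154 and 117 in wild-type to 320 and 285 in Bmal1-/- libraries (log2 fold change 1.17, SE 0.13, limma adjusted p = 1.7e-07). Igf2r, the receptor that removes Igf2 from the cell surface and is itself imprinted, named after its values were seen, rose from 2059 and 1927 to 3606 and 3552 (0.85, limma adjusted p = 6.04e-12). Igfbp4, a binding protein, was lowest at -0.82 (limma adjusted p = 0.0283), a call lost in 5 of 15 alternatives, among them without wild-type replicate 2 (-0.69, adjusted p = 0.131) and without Bmal1-/- replicate 1 (-0.65, adjusted p = 0.165).

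Cdkn1c is among 7 listed Cdk inhibitors of the Cip/Kip and Ink4 families, all tested, and belongs to the former. Of them 4 were lower (57.1%, against 28.6% of all tested genes) and 1 higher (14.3%, against 24.0%). Cdkn1c had the lowest log2 fold change against a median of -0.34 over the 7. The highest was Cdkn2c, the p18 inhibitor of Cdk4 and Cdk6, at 0.43 (limma adjusted p = 0.028), a call lost in 7 of 16 alternatives, among them without wild-type replicate 1 (0.22, adjusted p = 0.255) and without Bmal1-/- replicate 1 (0.30, adjusted p = 0.273).

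Of 24 listed genes that act on imprints, DNA methylation or chromatin silencing, 23 were tested. Of these 12 were higher (52.2%, against 24.0% of all tested genes), 5 lower (21.7%, against 28.6%) and 6 did not pass. The median log2 fold change was 0.13. The list mixes opposed roles. The 12 higher genes included Tet1, Tet2 and Tet3, which encode enzymes that oxidise DNA methylation. They also included Dnmt3a and Dnmt3l of the DNA methyltransferase family, while Dnmt3b of that family was among the 5 lower. Tet3, a dioxygenase that oxidises methylated cytosine, was highest, with 159 and 159 in wild-type and 319 and 303 in Bmal1-/- libraries (0.96, limma adjusted p = 1.36e-07). Dppa3, which protects maternal methylation in the zygote, was lowest, with 1148 and 1157 in wild-type and 601 and 590 in Bmal1-/- libraries (-0.95, limma adjusted p = 5.4e-11). Ctcf, Zfp57 and Zfp445 encode zinc finger proteins that bind imprinting control regions, and were named for this role after their values were seen. Zfp445 was higher, with 1081 and 1036 in wild-type and 1573 and 1581 in Bmal1-/- libraries (log2 fold change 0.58, limma adjusted p = 1.95e-08). Ctcf and Zfp57 had log2 fold changes of 0.07 and 0.03 and did not pass (limma adjusted p = 0.136 and 0.525), but both passed with equal library totals (0.14 and 0.09) and with quantile normalization (0.13 and 0.11), and Ctcf also in edgeR (0.10).

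**Figure D4:**
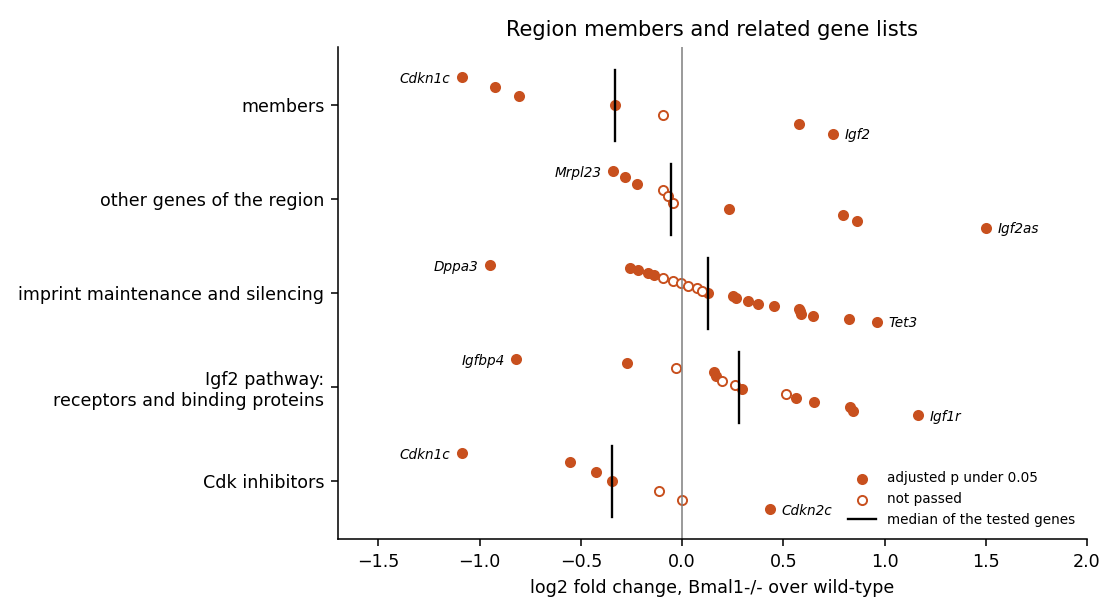
Log2 fold change (Bmal1-/- over wild-type) of every tested gene in each listed group, with 1 point per gene and a line at the median of each group. Cdkn1c is the lowest of the Cdk inhibitors, and Igf1r is the highest of the Igf2 pathway list.

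Several genes of the region are known from extraembryonic and mesenchymal cells, so markers of these cells were listed. Single markers differed, in both directions. Among all tested genes 28.6% were lower and 24.0% higher by adjusted p. Of 10 trophoblast markers 4 were tested, with 2 lower (Tfap2c and Cdx2) and 0 higher. Their summed normalised read counts were 1771 and 1798 in wild-type and 918 and 896 in Bmal1-/- libraries, and most of the sum was Tfap2c (1429 and 1444 against 576 and 541, log2 fold change -1.36, limma adjusted p = 1.73e-13). Without Tfap2c the sums were 342 and 355 against 342 and 356. Most of these sums was Krt8, with 214 and 222 in wild-type and 236 and 248 in Bmal1-/- libraries. Cdx2 went the other way, with 63.2 and 65.9 against 39.5 and 37.2 (log2 fold change -0.74, limma adjusted p = 0.00427). The equal sums therefore do not mean that each remaining marker was unchanged. Tpbpa and Prl3d1, which define differentiated trophoblast, had 0 reads in every library, and Elf5 and Gcm1 had at most 3, while Krt8 was highest at 0.15 and did not pass.

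The counts that follow stand against 24.0% higher and 28.6% lower among all tested genes. Of 13 gene identifiers for primitive endoderm markers, 7 were tested, with 5 higher and 1 lower. The sums of this list were 1397 and 1367 in wild-type and 2772 and 2760 in Bmal1-/- libraries. Lamb1 made most of this difference, and without it the sums were 789 and 764 against 1174 and 1112. Col4a1 (log2 fold change 1.44), Lamb1 (1.42) and Sox17 (1.27) were over 2-fold higher and Sox7 (-2.41) over 2-fold lower, Ttr had 0 reads in every library, and Gata6 had at most 6. Of 10 fibroblast markers 6 were tested, with 3 higher and 1 lower, and their sums were 3881 and 3718 in wild-type and 1624 and 1625 in Bmal1-/- libraries. That fall was carried by Vim (3626 and 3458 against 1117 and 1106), and without it the sums were 255 and 260 in wild-type and 507 and 519 in Bmal1-/- libraries, the opposite direction. Pdgfrb (1.48) and Fbn1 (1.06) were over 2-fold higher and Vim (-1.67) lower, and Col3a1, Postn, Col1a2 and Acta2 had at most 3 reads. Of the 10 pluripotency markers 4 were higher and 5 lower, from -0.14 for Zfp42 (limma adjusted p = 0.00703, and over 0.05 in 7 of 16 alternatives, up to 0.114 and including the fits that left out wild-type replicate 2, at 0.0502, or Bmal1-/- replicate 2, at 0.0548) to 0.40 for Tfcp2l1. These lists moved between the same libraries as the genes of the region, and their part in the differences was not tested.

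**Figure D5:**
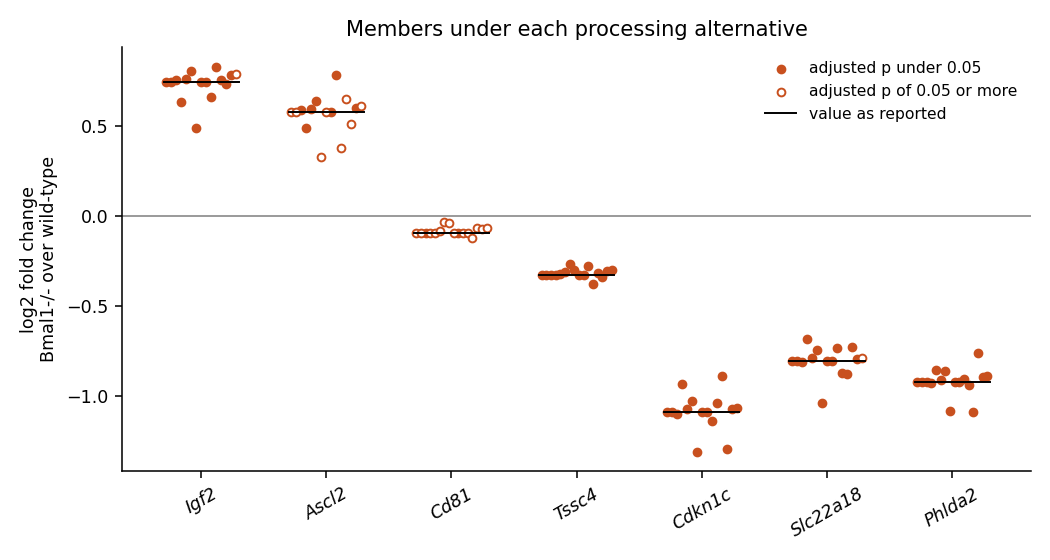
Log2 fold change of each tested gene under the main analysis and each alternative, with Bmal1-/- over wild-type on the value axis. No gene changes its direction, Phlda2 stays between -1.09 and -0.76, and Ascl2 ranges from 0.33 to 0.78.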

How the data were processed

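The deposited table held read counts per gene that the authors had scaled with TMM factors in NOISeq, a normalised signal rather than raw counts. Per the study's methods and processing notes, paired 75-base reads of stranded mRNA libraries were demultiplexed with bcl2fastq 2.18.0.12, trimmed with cutadapt 1.9.1 and aligned to mm9 with STAR 2.5.2b. The counting tool and its strand setting are not given in the sources used here. Each value was a whole multiple of 1 step per library (100% of values within 0.01 read), so reads were recovered.

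All 37310 identifiers matched GENCODE vM1 gene models. The 14510 genes (38.9%) whose values averaged 10 or more were tested on log2(value + 1) with limma 3.58.1 (intensity trend, R 4.3.3) and Benjamini-Hochberg adjustment, and a gene past an adjusted p of 0.05 was called. A log2 fold change is on this scale and understates the change of low genes. edgeR 4.0.16 and DESeq2 1.42.0 ran on recovered reads as alternatives. The test was tried on simulated data. Replicate libraries differed by more than sampling noise (chi-square per degree of freedom 3.01 for wild-type and 1.92 for Bmal1-/-). Counting intervals of read ratios were exact. No column was left unused.

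Genes named were the region's genes, each list's highest and lowest gene, list and flanking genes past both thresholds, the targeted gene and nearest neighbours by distance. Outside this rule, Igf2r, Ctcf, Zfp57, Zfp445, Tspan32, Gm15024, Tet1, Tet2, Dnmt3a, Dnmt3b and Dnmt3l were picked after their values were seen. So were single markers or relatives named at their counts. The genes and lists were chosen with earlier results of these data known.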

Additional observations from a re-analysis of the deposited data

How the results depend on the processing

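The 16 alternatives were run for the genes of the region and 29 others named in the text. They were not run for Cdx2, the nearest neighbours by distance or genes named only as examples of a count. They reversed the direction of none of the genes run. Of these comparisons, 518 kept their side of the threshold, 43 lost the call and 7 gained it, 5 of them for Ctcf and Zfp57 and 2 for Cd81, with a mean of at least 100 (limma adjusted p = 0.0459) and with the replicate block (limma adjusted p = 0.0398). The 518 include 2 each for H19 and Kcnq1, which had no call in the main analysis. They were counted as kept because their log2 difference was the same number. With a mean of at least 100, 3 genes of the region passed an adjusted p of 0.05 and 0 were also over 2-fold, because only 3 of the 7 have that mean, and 318 of all genes were past both thresholds against 1046. DESeq2 also called 3 genes of the region, against 6. A pseudocount of 10, which shrinks low genes, left 0 over 2-fold, and quantile normalization gave 3 (Cdkn1c, Slc22a18 and Phlda2). Without its intensity trend limma called 5060 genes at an adjusted p of 0.05 against 7639. Unless stated, the cause was not tested. On recovered reads edgeR called 7682 genes, 1091 of them over 2-fold, and DESeq2 5226 and 862. Leaving out a library left 5 to 6 genes of the region called and 1 over 2-fold, which was Phlda2 in place of Cdkn1c without Bmal1-/- replicate 1. The lone library of a line is then assumed to vary like the others.

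Scaling moved the median log2 fold change of all genes between -0.05 and 0.03. Of the genes called at an adjusted p of 0.05, 45.7% were higher, and 56.8% with equal library totals. Of the genes past both thresholds, 79.8% were higher, and 58.1% with quantile normalization.

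The experiment numbers shared by the lines are not said by the labels to mark a shared day or batch. Same-numbered libraries deviated with a correlation of -0.02, which with 2 libraries per line neither shows nor excludes a pairing, so the numbers were not used as one. With the replicate block 7 genes of the region were called and 1 was over 2-fold, and over all genes 7949 were called and 1056 were past both thresholds.

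With 2 libraries per line the error of any 1 gene is largely borrowed from other genes, and H19 and Kcnq1 lie near the limit of detection.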

Other observations

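Most of the genes called on the side before H19 were lower in the Bmal1-/- libraries. In the 2 Mb before H19, 45 genes were tested, of which 25 (55.6%) were lower and 2 (4.44%) higher by limma at an adjusted p of 0.05, with a median log2 fold change of -0.24. Over all of chromosome 7, 33.1% of 1189 tested genes were lower and 22.2% higher, with a median of -0.06. The lowest were Ifitm1 and Ifitm3, interferon-induced transmembrane protein genes that lie in 1 cluster. Ifitm1 had normalised read counts of 2536 and 2547 in wild-type and 952 and 915 in Bmal1-/- libraries (log2 fold change -1.44, limma adjusted p = 4.71e-15). Ifitm3 had 4358 and 4651 in wild-type and 2255 and 2058 in Bmal1-/- libraries (-1.06, limma adjusted p = 4.80e-13).

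In the 2 Mb beyond Phlda2, 18 genes were tested, with 6 higher (33.3%, against 24.0% of all tested genes) and 5 lower (27.8%, against 28.6%). Their median log2 fold change was -0.08. Past both thresholds were Ano1, a calcium-activated chloride channel (log2 fold change 1.28), and Mrgprd, a receptor known from sensory neurons (1.17). Neighbouring genes are not independent, and whether these shares differ from the rest of the chromosome was not tested.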
